A study of Homo sapiens with 3 samples.

Results

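Mitochondrial ribosomal proteins were described in SW480, an established cell line from a human colon adenocarcinoma, after knockdown of the RNA-binding protein RBMS1. The members were all protein-coding (NM) transcripts in the authors' deposited table whose RefSeq gene symbol starts with MRPL or MRPS, which gave 111 of 17868 named NM transcripts and 77 of 11487 genes. The gene annotation lists 77 protein-coding genes with these prefixes, so every one was measured. By symbol, 49 genes with 74 transcripts belong to the large subunit and 28 genes with 37 transcripts to the small subunit. The prefix rule itself uses no value, though it was chosen with earlier results of these data known.

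Total RNA came from 2 libraries of cells transduced with shControl hairpins and 1 library of cells transduced with an shRNA against RBMS1 (shRBMS1), all taken 48 hours after transduction. All 3 libraries are of the same line and carry a hairpin, and the labels do not give the sequence of the control hairpins or say whether both controls share it. The table holds 1 log2 fold change per transcript, shRBMS1 over shControl, and a gene's value here is the median of its NM transcripts, which is the table's own number where a gene has 1. All fold changes given here are these medians or single values of the authors' deposited table. With 1 knockdown library and 1 fold change per transcript there is no replicate check, no error and no p-value, and sequencing depth and expression levels are unknown. RBMS1 itself was at −1.49, or 35.6% of control, by the median of its 2 transcripts by the authors' deposited table, and the direction of the ratio was set by it. The label of the line could not be checked against levels: the epithelial genes EPCAM, KRT8, KRT18, CDH1 and VIL1 are listed with a fold change, and no NM transcript of the leukocyte gene PTPRC is listed.

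The mitochondrial ribosome translates the few messenger RNAs encoded by mitochondrial DNA, all for subunits of the respiratory chain and ATP synthase. Its proteins are all encoded in the nucleus, made on cytosolic ribosomes and imported. The large subunit joins amino acids and holds the exit tunnel next to the inner membrane, and the small subunit holds the messenger RNA and the decoding site. Proteins whose uniform names start with u or b, shared with bacteria, are here called conserved, and those with m names mitochondria-specific. The split follows the names alone, so MRPS18A and MRPS18B, paralogues of bacterial S18 with m names, count as mitochondria-specific.

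The sequences that bear on this comparison are the AUAUA elements that RBMS1 is known to bind, written ATATA in DNA letters, in the 3′ UTRs of the members. The windows below come from the GENCODE 29 transcript linked to the RefSeq entry (GRCh38), run 5′ to 3′ on the transcript strand, and show the element in capitals with up to 10 bases on each side. They were chosen by gene value to show lower and higher members: MRPL45, MRPS6 and MRPL10 lay below 0, and MRPL50, MRPS9 and MRPL47 above. The MRPL45 window is taken from the transcript that was itself at 0.30. The gene's value of −0.77 is the median of that transcript and another at −1.84.
MRPL45 (chr17:38323133-38323157, + strand): gccctttttcATATActgactcact
MRPS6 (chr21:34142679-34142703, + strand): tttggcctttATATAagcatgtgtt
MRPL10 (chr17:47823455-47823479, − strand): ataaaatgaaATATAttctacttcc
MRPL50 (chr9:101389863-101389887, − strand): aaaaattagaATATAtgccaaatat
MRPS9 (chr2:105099784-105099808, + strand): aggaagagctATATAtatgtgccga
MRPL47 (chr3:179588394-179588418, − strand): acagtccaaaATATAtttctggaat

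Of the 77 members, 35 (45.5%) hold at least 1 ATATA in the annotated 3′ UTR, with 118 sites in all, counting overlapping ones on the transcript strand alone. Among all 11184 genes with an annotated 3′ UTR the share was 58.8%. The 3′ UTRs of the members are shorter, with a median of 387 bases against 1135 over genes. Members with a site had a median of 0.11 and 25 of 35 lay above 0, and members without had a median of 0.08 with 31 of 42 above 0. The median 3′ UTR was 932 bases in the first group and 239.5 in the second. Over all genes the medians were 0.01 with a site and −0.01 without. In all, 50.4% of genes lay above 0, and the share by site was not computed. Sites were read from 1 linked transcript per gene, while values are gene medians, and these can differ. MRPL11, at 0.35, has its site in a transcript at −0.88, and MRPS18C, at −0.06, in one at 0.33. The members richest in sites had gene values close to 0. MRPL42, whose linked transcript has 32 sites in a 3′ UTR of 14992 bases, was at 0.09. That value is the median of −0.16 and 0.34, from entries that share the linked transcript. MRPS33 with 7 sites was at 0.10. Lower and higher members both hold the element, and a site in this window is a match of letters, with binding not measured.

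Mitochondrial ribosomal protein genes lay slightly higher in the knockdown library and close together. Their median was 0.09, or 107% of control, against 0.00342 over all genes, and 56 of 77 (72.7%) lay above 0 where 50.4% of all genes did. In all, 69 members (89.6%) lay within 0.5 of 0, compared with 77.4% of genes. A fold of at least 0.5 on the log2 scale was reached upward by 4 members (5.19%), beside 9.3% of genes, and downward by 4 (5.19%), beside 13.3% of genes. At a fold of 0.3 the counts were 12 members upward, beside 18.1% of genes, and 9 downward, beside 22.5%. At a fold of 1 they were 1 upward, beside 3.62% of genes, and 0 downward, beside 4.06%. The 21 members below 0 compare with 49.6% of genes below 0. The interquartile range was 0.24 for the members and 0.48 for all genes.

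**Figure D1:**
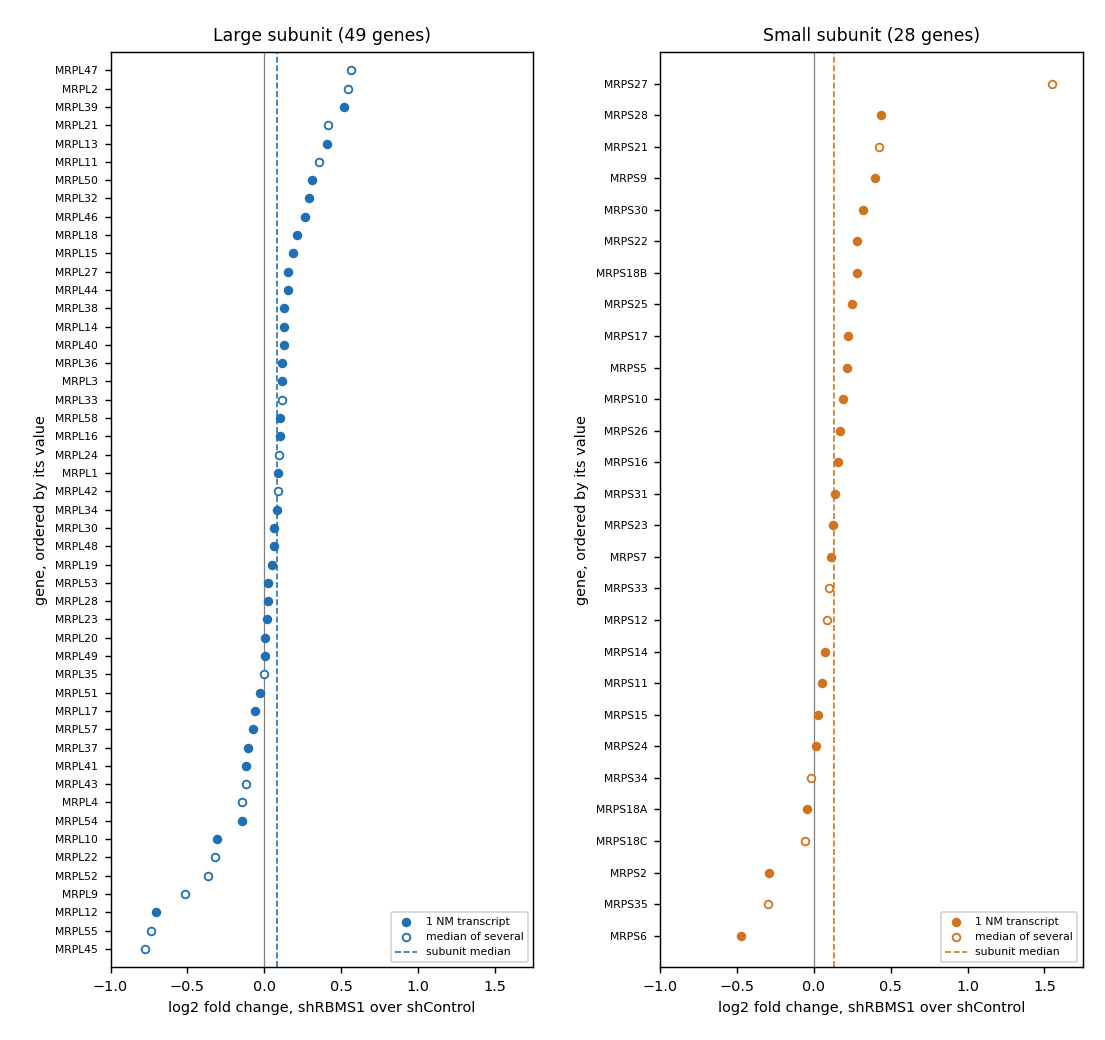
Each point is the log2 fold change of 1 gene (x axis), genes ordered by value (y axis), for 49 large subunit genes (left) and 28 small subunit genes (right); filled points rest on 1 NM transcript, open points on the median of several, and the dashed line is the subunit's median. MRPS27, at 1.55, stands apart on the right and rests on transcripts that differ, while MRPL12, at −0.71, is a low point with 1 transcript.

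The subunits were compared next. Small subunit genes had a median of 0.13, or 110% of control, with quartiles of 0.03 and 0.26 and 22 of 28 (78.6%) above 0. Large subunit genes had a median of 0.08, or 106% of control, with quartiles of −0.07 and 0.15 and 34 of 49 (69.4%) above 0. The large minus small difference of medians was −0.05, which is less than the interquartile range inside either subunit (0.23 and 0.23). All 4 members at or below −0.5 belong to the large subunit, or 8.16% of its 49 genes, beside 13.3% of all genes. Of the 4 at or above 0.5, 3 do, or 6.12%, beside 9.3% of all genes. Among the 4 low ones, MRPL45, MRPL55 and MRPL9 rest on transcripts that lie on both sides of 0. No test of the difference between subunits is possible with 1 fold change per transcript. GC content of the transcripts, which ran with the values as given further on, also differed, with a median of 47.3% in the small and 50.8% in the large subunit, and its part in the difference was not tested.

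**Figure D2:**
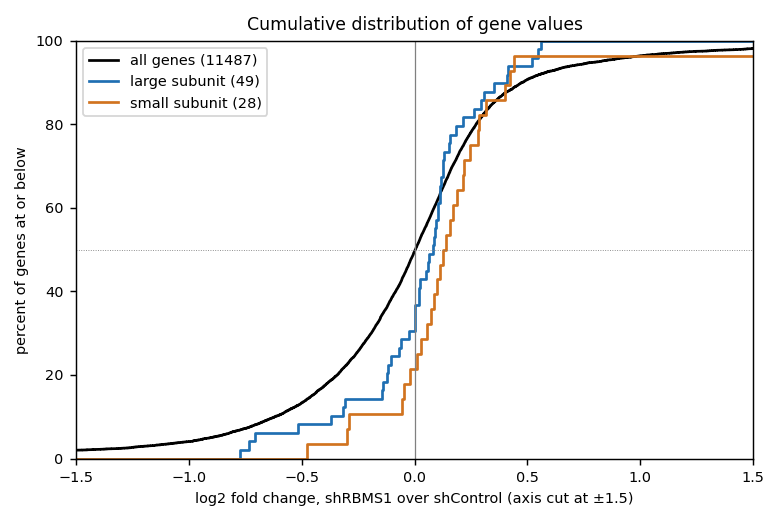
Percent of genes (y axis) at or below each log2 fold change (x axis) for all 11487 genes, the large subunit and the small subunit. Both subunits cross the 50% line to the right of all genes, the large at 0.08 and the small at 0.13, and the axis ends at 1.5, so that MRPS27, at 1.55, lies outside it.

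Conserved and mitochondria-specific proteins had like medians. The 46 conserved members were at 0.09 with 36 above 0, and the 31 mitochondria-specific members at 0.10 with 20 above 0. Within the large subunit, 30 conserved genes had a median of 0.09 and 19 specific genes 0.03. In the small subunit the medians were 0.10 for 16 conserved and 0.15 for 12 specific genes. Symbols do not always give the subunit: MRPS18A and MRPS30 carry small subunit names and sit in the large subunit in known structures. MRPS18A was at −0.05 and MRPS30 at 0.32 by the authors' deposited table. Moving both to the large subunit left the medians as they were, which had to follow because they lie on either side of both medians.

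The lowest large subunit members were of mixed kinds. MRPL45, which lies at the tunnel exit and helps hold the ribosome at the inner membrane, was at −0.77 (58.5% of control). MRPL55, a counterpart of bacterial L31, was at −0.73 and MRPL9 at −0.52. These 3 values are medians of transcripts that lie far apart and are taken up below. MRPL12, the stalk protein that contacts translation factors and also binds the mitochondrial RNA polymerase, was at −0.71 (61.3% of control), on chromosome 17 at 81703367 to 81707517 (hg38), and rests on 1 transcript of the authors' deposited table. It was the lowest member with a single transcript. MRPL10, the base of the same stalk, was at −0.31 (80.8% of control) by the authors' deposited table, also with 1 transcript. MRPL11, the third protein of the stalk region, was at 0.35. The stalk proteins thus stood on both sides of 0. MRPL52 at −0.37 and MRPL22 at −0.32 complete the 6 lowest before MRPL10.

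Proteins near the exit tunnel also lay on both sides of 0. MRPL22, a conserved ring protein, was at −0.32, with transcripts at −0.57 and −0.06 by the authors' deposited table. Its neighbours MRPL23 and MRPL24 were at 0.02 and 0.09. MRPL47, the counterpart of bacterial L29 on the same ring, was at 0.56 (148% of control), the highest large subunit gene, and both its transcripts lay above 0 at 0.40 and 0.73 by the authors' deposited table.

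Among the other high large subunit members, MRPL2, a core protein near the catalytic centre, was at 0.55 and MRPL39, a mitochondria-specific protein, at 0.52 (143% of control). MRPL39, on chromosome 21 at 25585656 to 25607859 (hg38), rests on 1 transcript by the authors' deposited table and was the highest member of that kind. MRPL21 and MRPL13, both conserved, were at 0.41 and 0.41. Examples nearer to 0, each conserved and with 1 transcript, were MRPL3 at 0.11, MRPL16 at 0.10 and MRPL27 at 0.16 by the authors' deposited table. MRPL58, a peptidyl-tRNA hydrolase that became part of the ribosome, was at 0.10 there.

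In the small subunit, MRPS27, an RNA-binding pentatricopeptide repeat protein, was highest at 1.55, and its transcripts differ, as described below. MRPS28 was at 0.44, MRPS21 at 0.42, MRPS9 at 0.40, MRPS30 at 0.32 and MRPS22, a mitochondria-specific protein, at 0.28. Conserved members with smaller values by the authors' deposited table were MRPS7 at 0.11, MRPS10 at 0.19, MRPS14 at 0.07 and MRPS24 at 0.01. MRPS12, a protein of the decoding site, was at 0.09. The lowest small subunit gene was MRPS6 at −0.48 (71.9% of control), on chromosome 21 at 34073578 to 34143030 (hg38), with 1 transcript by the authors' deposited table. Next came MRPS35 at −0.30, MRPS2 at −0.29, MRPS18C at −0.06, MRPS18A at −0.05 and MRPS34 at −0.02. Of the paralogues of bacterial S18, MRPS18B was at 0.28 by the authors' deposited table, above the other two.

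Members with 1 measured transcript were the tighter group. There were 55 of them, with a median of 0.11, and 44 (80.0%) lay above 0, beside 49.3% of the 7302 genes with 1 transcript. Only MRPL12 and MRPL39 of these 55 lay 0.5 or more from 0, whereas 19% of single-transcript genes did. The 22 members with several transcripts had a median of 0.04 with 12 above 0, and 72.7% of them lay within 0.5 of 0. Single-transcript genes were tighter in the whole table as well, with 81.0% within 0.5 of 0, beside 77.4% of all genes.

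Transcripts of 1 gene often lay apart, in the table as a whole as well as in the members. In 9 of the 22 members with several transcripts (40.9%) the transcripts lay 1 or more apart, beside 48.4% of the 4185 such genes in the table. In 13 of the 22 they lay on both sides of 0, and the share of such genes in the table was not computed. The median distance was 0.51 in members and 0.96 over genes. Counted as transcripts, 9 of 111 (8.11%) were at or above 0.5, beside 15.8% of all NM transcripts, and 12 (10.8%) at or below −0.5, beside 17.6%. Past 1 there were 3 transcripts upward (2.70%, beside 7.77%) and 6 downward (5.41%, beside 7.93%).

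**Figure D3:**
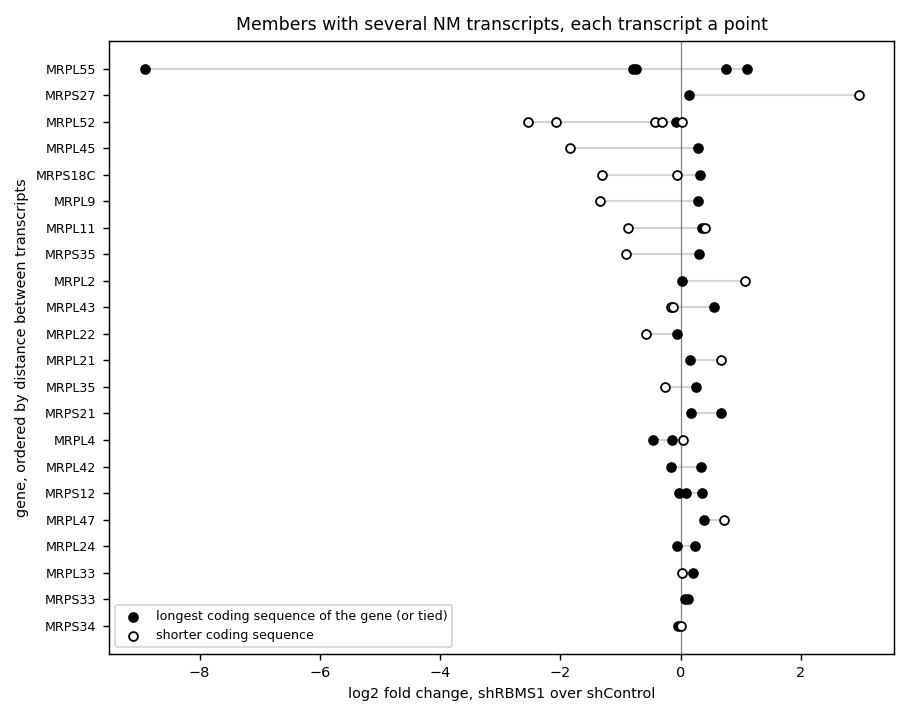
Each point is 1 NM transcript of a member with several, by log2 fold change (x axis) and gene (y axis, ordered by the distance between its transcripts); filled points have the gene's longest coding sequence, or tie for it, and open points a shorter one. MRPL55 spans −8.91 to 1.10 with equal coding sequences, and 9 genes span at least 1.

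The widest was MRPL55, on chromosome 1 at 228106685 to 228109299 (hg38). Its transcripts were at −8.91, −0.78, −0.73, 0.76 and 1.10 by the authors' deposited table. All 5 have a linked coding sequence of 387 bases, so no difference in coding length goes with the values. The value of −8.91 lies near the table's limit, since no transcript is beyond 10, and whether it reflects a level near 0 in 1 group was not tested, since no levels are given. MRPS27, on chromosome 5 at 72219403 to 72320240 (hg38), had 2.96 for NM_001286751 and 0.14 for NM_015084 by the authors' deposited table. The lower value belongs to the longer coding sequence, 1245 bases against 1077.

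MRPL45 had −1.84 for NM_001278279 and 0.30 for NM_032351 by the authors' deposited table. MRPL9 had −1.33 for NM_001300733 and 0.30 for NM_031420 there. In both genes the higher value belongs to the longer coding sequence, 921 against 771 bases in MRPL45 and 804 against 702 in MRPL9. MRPS35 was alike, at −0.91 and 0.31 by the authors' deposited table. MRPS18C had −1.31, −0.06 and 0.33 there, in the order of its coding lengths of 207, 345 and 429 bases. MRPL52 had 6 transcripts from −2.55 to 0.02 by the authors' deposited table, the lowest 2 of which share a linked transcript of 195 coding bases. MRPL11 had −0.88, 0.35 and 0.41 there, and MRPL2 had 0.02 and 1.08. The transcript of MRPL2 with the longer coding sequence was the one at 0.02.

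Over the 16 members whose transcripts differ in coding length, the longest coding sequence was above the median of the shorter ones in 10 genes, and in 48.3% of the 3169 such genes of the table. Taken as 1 median per gene, the longest forms of these members ranged from −0.30 to 0.55 with a median of 0.23. The shorter forms, also as 1 median per gene, ranged from −1.84 to 2.96 with a median of −0.19. The lowest single shorter form was at −2.55, in MRPL52. The sources used here do not say how reads were divided between transcripts of a gene. Nor do they say how reads were divided between genes and the 106 MRPL and MRPS pseudogenes that the gene annotation lists.

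Proteins outside the prefixes completed the ribosome. DAP3, a GTP-binding protein of the small subunit, was at 0.39, CHCHD1 at 0.32, PTCD3 at 0.13, AURKAIP1 at −0.19 and the large subunit protein GADD45GIP1 at −0.20. Transcripts of DAP3 ran from −0.30 to 0.73 by the authors' deposited table. These 5 had a median of 0.13 and none reached 0.5 in either direction.

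Other groups of mitochondrial translation had medians of the same small size. Their counts are to be read beside all genes, of which 50.4% lay above 0, 9.3% at or above 0.5 and 13.3% at or below −0.5, and with so few genes a count of 1 or 2 past 0.5 shows nothing particular to a group. Of 17 factors and activators of translation 11 lay above 0, with a median of 0.06, 2 at or above 0.5 and 1 at or below −0.5. SLIRP, which stabilises mitochondrial messenger RNA with LRPPRC, was at 0.99. Its transcripts were at 0.17, 0.99 and 1.12 by the authors' deposited table. The release factor homologue MTRFR was at 0.68. The elongation factor GFM1 was at −1.03, from transcripts at −2.19 and 0.13 by the authors' deposited table, and MTRF1L at −0.16. Of 27 assembly and ribosomal RNA modification factors 17 lay above 0, with a median of 0.06, 1 at or above 0.5 and 2 at or below −0.5. MTERF4 was at 0.58 and TFB1M, a ribosomal RNA methyltransferase, at 0.37. The pseudouridine synthase RPUSD4 was at −3.31, from transcripts at −6.92 and 0.30 by the authors' deposited table, and NGRN at −0.73.

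Of 22 genes that charge mitochondrial tRNAs 14 lay above 0 (63.6%, beside 50.4% of all genes), with a median of 0.10. Of these 22, 2 were at or above 0.5 (9.09%, beside 9.3%) and 1 at or below −0.5 (4.55%, beside 13.3%). SARS2 was at 1.00, from transcripts at −0.05 and 2.05 by the authors' deposited table. HARS2 was at 0.57, from −0.05 and 1.19 by the authors' deposited table. TARS2 was at −0.93, from −2.69 and 0.83 by the authors' deposited table. Of 13 genes of mitochondrial transcription and RNA processing 11 lay above 0 (84.6%), with a median of 0.19. Of these 13, 1 was at or above 0.5 (7.69%) and none at or below −0.5, beside the same shares of all genes. The helicase SUPV3L1 was at 0.70, from transcripts at 0.05 and 1.35 by the authors' deposited table. TFAM, which packages mitochondrial DNA, was at 0.28. HSD17B10 was at −0.19, from transcripts at −0.56 and 0.18 by the authors' deposited table, and ELAC2 was at −0.11. For orientation, 77 cytosolic ribosomal protein genes had a median of 0.12 with 66 above 0, and 78 respiratory chain and ATP synthase genes 0.09 with 55 above 0. The differences between these groups could not be tested.

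**Figure D4:**
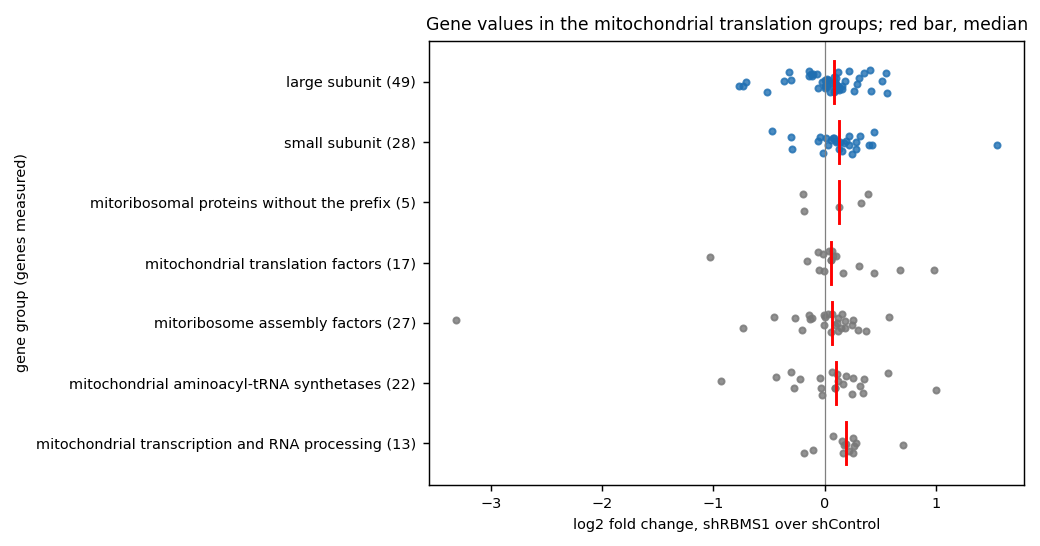
Log2 fold change (x axis) of each measured gene (points, spread vertically for sight) in the subunits and in related groups of mitochondrial translation (y axis); the red bar is the median. All 7 medians lie between 0.06 and 0.19, and single genes such as RPUSD4, at −3.31, lie far from them.

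The members share features that the rule did not use. Their transcripts were short, with a median of 1406 bases against 3109 over 11272 genes, and their GC content had a median of 50.3% against 49.0%. In the whole table the value of a gene ran weakly with both (Spearman's rho −0.14 with length and −0.17 with GC, across genes, which are not independent replicates). The 1760 genes between the quartiles of the members' lengths, 1028 and 1845 bases, had a median of 0.06 with 57.4% above 0, beside 0.09 and 72.7% for the members. Among the 77 members rho was 0.04 with length and −0.33 with GC, again over genes of the same libraries. The 38 members above the median GC of the group had a median of 0.03 with 25 above 0, and the other 39 had 0.13 with 31 above 0. Over all genes the same division gave −0.07 with 41.7% above 0 and 0.07 with 58.1%. The part of GC content and length in the members' values was not tested.

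**Figure D5:**
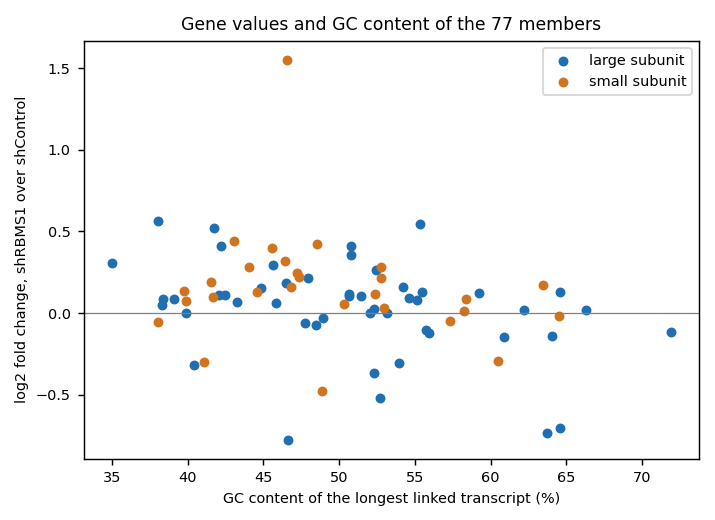
Log2 fold change (y axis) against GC content of the longest linked transcript in percent (x axis) for the 77 members, coloured by subunit. Values tend to be lower at high GC content (rho −0.33). MRPL12 and MRPL55, both above 63% GC, are among the lowest points, but the lowest, MRPL45, has 46.6%. The longest linked transcripts of MRPL55 and MRPL45 were themselves at 0.76 and 0.30.

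Many members lie back to back with another gene. In GENCODE 29, 29 of 77 members (37.7%) have a protein-coding gene on the opposite strand whose start is within 1000 bases, beside 18% of 11103 measured genes. In the 24 such pairs with both genes measured, 13 had both above 0, 4 had both below and 7 lay on opposite sides. Since 72.7% of all members lay above 0, these counts do not show that paired genes move together, and the share among other such pairs of the table was not computed. MRPL46 and MRPS11, which start 34 bases apart on chromosome 15, form a pair of members at 0.26 and 0.06. MRPL47 was paired with the complex I gene NDUFB5 at 0.11, and MRPL32 with the proteasome gene PSMA2 at 0.31, close to its own 0.29. MRPL52 at −0.37 lay beside SLC7A7 at −0.71, and MRPL41 at −0.12 beside PNPLA7 at 0.71. The sources used here do not say whether the counting used strand, so reads where such genes overlap may not be told apart. The members are spread over 21 chromosomes with at most 8 on any.

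The promoters of members often hold CCGGAAG, the core of sites bound by ETS family factors, which are known to control many genes of mitochondrial function. RefSeq promoter windows (GRCh38.p14, from 250 bases before to 50 after a gene's start) were matched for 69 members with 85 windows. The motif, on either strand, was in 33 of the 85 windows (38.8%), beside 17.7% of the 13880 windows of measured genes and 10.3% of all 35116 windows. Among members the 30 with it had a median of 0.10 with 23 above 0, and the 39 without had 0.08 with 26 above 0. Over measured genes the medians were 0.05 with it and −0.01 without, and 50.4% of all genes lay above 0. The NRF1 core GCATGCGC was in 7.06% of member windows, beside 4.88% of windows of measured genes. Other motifs were searched on either strand, with the windows of measured genes beside them. The CCAAT box CCAAT was in 32.9% of member windows beside 35.1%. The TATA box TATAAA was in 3.53% beside 6.04%. The E-box CACGTG was in 10.6% beside 9.50%, and the GC box GGGCGG in 60.0% beside 67.4%. The 120 bases before the start are shown for MRPL47 and MRPS21, among the highest members with the motif, and for MRPS22. The MRPS22 window shown holds the motif on both strands side by side, and another MRPS22 window has none. Also shown is MRPL12, the lowest member with 1 transcript, which has no CCGGAAG in its window. Another match in each of the MRPS21 and MRPS22 windows lies after the start and is not shown. Capitals mark the motif on either strand, each sequence runs 5′ to 3′ on the strand of the gene, and the examples were chosen after their values were seen.
MRPL47 (chr3:179604639-179604758, − strand): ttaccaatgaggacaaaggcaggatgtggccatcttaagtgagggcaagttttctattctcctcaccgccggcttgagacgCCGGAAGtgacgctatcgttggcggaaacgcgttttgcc
MRPS21 (chr1:150293741-150293860, + strand): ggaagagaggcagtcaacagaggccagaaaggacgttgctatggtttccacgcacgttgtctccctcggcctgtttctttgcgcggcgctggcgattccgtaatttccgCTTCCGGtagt
MRPS22 (chr3:139343874-139343993, + strand): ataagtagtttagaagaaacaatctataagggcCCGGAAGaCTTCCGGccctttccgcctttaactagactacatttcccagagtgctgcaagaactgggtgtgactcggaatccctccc
MRPL12 (chr17:81703247-81703366, + strand): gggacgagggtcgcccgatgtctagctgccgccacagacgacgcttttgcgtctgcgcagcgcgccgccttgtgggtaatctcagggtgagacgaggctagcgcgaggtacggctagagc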

How the data were processed

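Total RNA of 2 shControl libraries and 1 shRBMS1 library was made with Ribo-Zero Gold and ScriptSeq v2 kits and read on a NextSeq 500, per the labels' protocols. STAR 2.5, Cufflinks, Cuffdiff and the build hg38 are named, per the submitters' processing notes, with no roles or settings. The authors deposited 1 log2 fold change per RefSeq transcript for 20104 transcripts, with filters not given in the sources used here. Per the file headers, the column is called logFC. Its header gives neither base nor direction. Base 2 was taken from spacing around values repeated 3 or more times: 20 transcripts stood at a distance of 1 (tolerance 1.5e-05), against 4 at ln 2 and 5 at log10 of 2. The direction was taken from RBMS1 below 0, and every sign would turn were it the other way. Depth and levels are unknown, so no interval or floor was computed.

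RefSeq accessions were matched to symbols through RefSeq genes (GRCh38.p14, the assembly of hg38), which left 126 of 17994 NM transcripts unnamed. Lengths, GC content, coding sequences and 3′ UTRs came from GENCODE 29 through its RefSeq links, which can join 2 accessions to 1 transcript. Promoter windows came from RefSeq. Each gene took the median over its NM transcripts. Medians and counts at or past 0.5 were set beside those of all genes, without a test. The members and lists were chosen with earlier results of these data known. Named were members at or past 0.5, the 6 highest and 6 lowest of each subunit, members with transcripts 1 or more apart, the 5 proteins without the prefix, the S18 paralogues and MRPS30, and the 2 highest and 2 lowest of other lists, of which 1 gene is not reported here. Members named for their role in the ribosome, their neighbours or their sequence were chosen after their values were seen. Alternatives were the mean, least changed or longest transcript, single-transcript genes, every transcript alone, centring, other members, other subunit assignment and thresholds of 0.3 and 1. The summary was tested on simulated data with known shifts. Python 3.11.15, numpy 2.4.6, pandas 2.3.3, scipy 1.17.1 and matplotlib 3.10.9 were used.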

Additional observations from a re-analysis of the deposited data

How the results depend on the processing

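No paired analysis was possible because there is 1 shRBMS1 library and 1 deposited fold change per transcript, and for the same reason no library could be left out. The small subunit median was above the large one in each of the 8 settings that changed how genes, members or subunits were taken, with a large minus small difference between −0.09 and −0.05. Centring shifts both subunits alike and could not change this difference. Nor could the other subunit assignment, since MRPS18A lies below both medians and MRPS30 above them. The median of all members ranged from 0.09 to 0.12. No median moved by 0.1 or more. Counts past the threshold did move. From 4 at or above 0.5 and 4 at or below −0.5, the least changed transcript gave 1 and 2, single-transcript genes 1 and 1, every transcript alone 9 and 12, a threshold of 0.3 gave 12 and 9, and a threshold of 1 gave 1 and 0. The longest transcript gave 1 at or below −0.5. MRPL45 turned from −0.77 to 0.30 with the least changed or longest transcript, MRPL9 from −0.52 to 0.30 with either, and MRPL55 from −0.73 to 0.76 with the longest. In all 3 the setting takes another of the gene's transcripts. MRPS27 went from 1.55 to 0.14 with either. Members nearer to 0 than 0.5 also changed sign: MRPS35 from −0.30 to 0.31 with the least changed or longest transcript, MRPS18C from −0.06 to 0.33 with the longest, MRPL52 from −0.37 to 0.02 with the least changed and MRPL11 from 0.35 to −0.04 with the mean. The mean of a member with 2 transcripts is its median and could not differ. MRPL12 and MRPL39 have 1 transcript and could not move. Depth limits cannot be given without counts.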

Other observations

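Non-coding (NR) transcripts of member genes were outside the rule and gave 9 values in the authors' deposited table. MRPL49 had 1.57 for its non-coding transcript and 0.00319 for the coding one in the authors' deposited table, and MRPL10 had 0.98 and −0.31. The 4 non-coding transcripts of MRPS2 ran from −2.29 to −0.19 by the authors' deposited table, beside −0.29 for the coding one. MRPL30 had 0.63 and 0.07 in the authors' deposited table. Of loci that carry the prefix without being coding genes, the pseudogene MRPL45P2 was at 1.21 and MRPS31P5 at −0.31 and 0.23 in the authors' deposited table.

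KGD4, which was once named MRPS36 and is now assigned to the 2-oxoglutarate dehydrogenase complex, was at 0.24 in the authors' deposited table and was not counted as a member.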
